A study of Mus musculus with 10 samples.

Results

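P-type ATPases are membrane pumps that take a phosphate from ATP onto an aspartate of their own chain and use it to move ions, or lipids, against a gradient. The 9 genes described here encode ion pumps of this family, or subunits of them, and were measured in mouse liver. Atp4a encodes the catalytic subunit of the proton/potassium pump that acidifies the stomach. Atp1b1 and Atp1b3 encode beta subunits of the sodium/potassium pump, which escort its catalytic subunit to the plasma membrane and are not ATPases themselves. Atp2a2 and Atp2a3 load calcium into the endoplasmic reticulum, Atp2b1 and Atp2b2 expel it across the plasma membrane, Atp2c1 brings calcium and manganese into the Golgi, and Atp7b moves copper into bile and onto ceruloplasmin. These genes were taken by name from 55401 gene identifiers. Atp4a was chosen by its fall in the very comparison reported here, so its values are a description without a test.

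The livers came from 5 wild-type mice and from 5 littermates lacking thyroid hormone receptor beta in the liver (Thrb hep-/-), all C57Bl6/J in the sample titles and fed standard chow. Deletion was obtained by crossing Thrb-loxP/loxP mice with Afp-Cre mice, in which the promoter of a fetal liver gene drives the recombinase. The age and sex of the mice, and the Cre and loxP status of the wild-type littermates, were not given in the sources used here. Each numbered sample, taken here as 1 mouse, gave 1 poly(A) RNA library, and library totals ranged from 26477195 to 28590704 counted reads. Levels are given as normalized CPM, the counts per 1000000 reads after scaling of the libraries to each other with TMM factors.

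The genotype labels were examined on Thrb and on Dio1, a deiodinase gene driven by thyroid hormone. Thrb was at 32.5 to 34.2 normalized CPM in wild-type livers and 24.9 to 28.8 in Thrb hep-/- livers (log2 fold change -0.32, SE 0.07, edgeR adjusted p = 0.0359). Dio1 was at 141 to 208 against 13.8 to 25.9 (log2 fold change -3.03, SE 0.18, edgeR adjusted p = 1.26e-05). Neither gene overlapped between the genotypes. Hectd3 (log2 fold change -0.15, adjusted p = 0.347) and Thrsp, a lipogenic gene (log2 fold change -1.28, adjusted p = 0.304), did not pass the threshold of 0.15 used for calls throughout, which is that of the study.

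The sequence in front of Atp4a was poorer in CpG than those of the other genes for which a start was available. RefSeq starts on GRCm38.p6 were available for 8 of the 9 genes and not for Atp2a2, with 13 promoters in all. The 250 bases before each start were read. Atp4a is shown with Atp1b1 because they stand for the contrast. Capitals mark the letters TGTTTGC, a forkhead-type sequence, or GGGCGG, a GC box, on either strand. The Atp4a stretch lies at chr7:30711959-30712208 on the plus strand and the Atp1b1 stretch at chr1:164458356-164458605 on the minus strand.
Atp4a: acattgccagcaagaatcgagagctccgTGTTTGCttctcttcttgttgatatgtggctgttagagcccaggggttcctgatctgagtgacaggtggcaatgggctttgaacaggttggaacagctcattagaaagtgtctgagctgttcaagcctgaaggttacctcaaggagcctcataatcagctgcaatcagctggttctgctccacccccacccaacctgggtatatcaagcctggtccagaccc
Atp1b1: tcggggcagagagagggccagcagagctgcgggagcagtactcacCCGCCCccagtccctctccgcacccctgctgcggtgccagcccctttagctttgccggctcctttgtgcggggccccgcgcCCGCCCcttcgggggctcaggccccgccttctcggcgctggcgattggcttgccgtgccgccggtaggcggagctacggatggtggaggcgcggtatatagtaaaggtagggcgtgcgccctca
The Atp4a stretch held 2 CpG dinucleotides and 51.2% G or C, against a median of 6 CpG and 52.4% over 32851 mouse promoter windows of that length, and 29.0% of these windows held as few CpG or fewer. In the other 12 promoters CpG ran from 6 to 43 and G or C from 51.6% to 80.8%. GGGCGG was present in 8 of the 13 promoters and in 32.7% of all promoters, and Atp4a held none. TGTTTGC was present in Atp4a alone among the 13, and in 4.3% of all promoters. Neither the nuclear receptor half-site AGGTCA (14.0% of all promoters), nor 2 such half-sites in direct repeat with 4 bases between them (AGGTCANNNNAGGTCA, 0.0152%), nor TATAAA (12.4%) was found in any of the 13 windows, and CACGTG (6.02%) was found in 1 of them, at Atp1b3. These letters were searched after the sequences had been seen, and a match or its absence says nothing of binding.

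Atp4a (ENSMUSG00000005553, chromosome 7, 30712209 to 30725534, plus strand, 21 exon blocks) was a gene of low level in wild-type liver. Wild-type mice 1 to 5 had 2.99, 5.42, 5.18, 2.07 and 2.92 normalized CPM, resting on 53 to 155 reads a library. Thrb hep-/- mice 1 to 5 had 0.35, 0.94, 0.45, 0.43 and 0.60 normalized CPM, resting on 10 to 25 reads. Every Thrb hep-/- liver was below every wild-type liver, and the wild-type mean was 6.73 times that of Thrb hep-/- livers (3.72 ± 1.49 against 0.55 ± 0.23, SD, n = 5 each; log2 fold change -2.75, SE 0.33). The relative spread between mice was similar in both genotypes, with a coefficient of variation of 40.2% and 42.3%. Atp4a passed the filter on low counts only through the wild-type libraries, since no Thrb hep-/- library reached 1 CPM. In bulk liver, fewer cells that express a gene and less RNA per cell cannot be told apart. For comparison, 2.57% of the 12234 genes tested were called lower in Thrb hep-/- livers, and the genotypes did not overlap in 3.64% of them.

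The partner subunit and the other proton/potassium pump were close to absent. Atp4b, the beta subunit with which Atp4a works in the stomach, gave 1 read in 1 of the 10 libraries. Atp12a, the non-gastric proton/potassium pump, gave 0 reads in all 10, which at 3 counts a library allows up to 0.105 to 0.113 CPM (counting error only). Among 11 stomach mucosa markers none passed the filter on low counts and 2 (Gkn1 and Gkn2) were at 0 in all libraries. Their summed level was 0.274 to 0.524 normalized CPM in wild-type and 0.139 to 0.354 in Thrb hep-/- livers. Tff1, a mucosal peptide gene, made up part of it with 0.256 ± 0.075 against 0.077 ± 0.028 (SD, n = 5 each). Its levels did not overlap between the genotypes, at 5 to 10 against 1 to 3 reads a library. The summed stomach level in each wild-type library was under the Atp4a level of that library. Atp4a was chosen for its fall, and the stomach sum rested on 4 to 15 reads a library. The comparison therefore says nothing of the source of the Atp4a reads. Intrinsic factor (Gif), pepsinogen C (Pgc) and Muc5ac were at 0 in every wild-type library, while Tff1, Tff2 and Kcne2 had reads in every one. The source of these reads was not tested.

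The levels of the other 8 genes overlapped between the genotypes. Of these 8, none passed an adjusted p of 0.15 in edgeR, DESeq2 or limma-voom, and none had an unadjusted p below 0.05 in edgeR, where 4.08% of all genes tested were called. Their log2 fold changes ran from -0.24 to 0.13 with a median of 0.02, beside a median of 0.00054 over all genes.

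**Figure D1:**
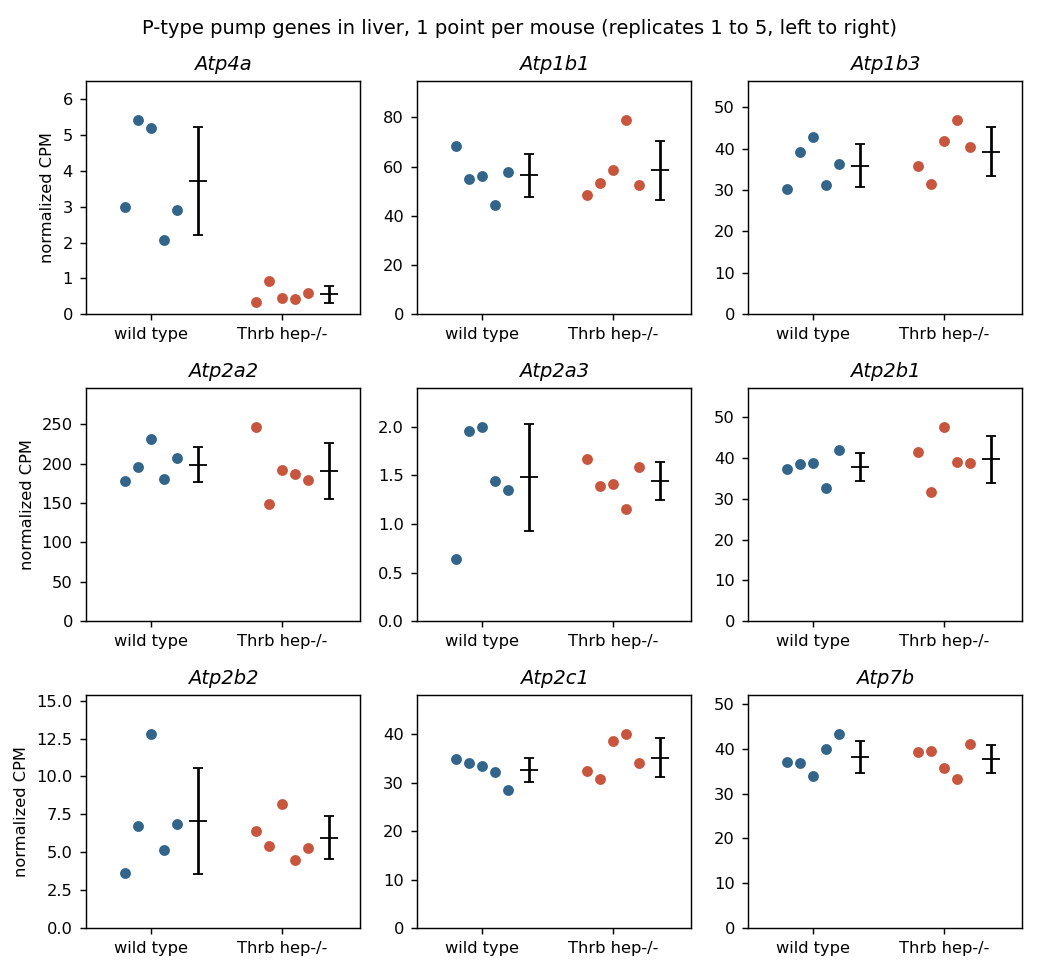
Normalized CPM (vertical axis, linear from 0, a scale for each gene) of the 9 genes, 1 point per mouse, with the mean and SD of each genotype as a black mark and bar. Atp4a is the gene with no overlap, at 2.07 or more in wild-type and 0.94 or less in Thrb hep-/- livers.

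Neither sodium/potassium pump subunit passed the test. Atp1b1 (chromosome 1, 164437109 to 164458355) was at 68.5, 55.1, 56.0, 44.4 and 57.9 normalized CPM in wild-type mice 1 to 5 and at 48.6, 53.2, 58.7, 78.9 and 52.6 in Thrb hep-/- mice 1 to 5. The highest and the lowest of the 10 values thus fell in different genotypes, and the fitted difference was small (log2 fold change 0.05, 95% interval -0.25 to 0.35, edgeR adjusted p = 0.924). Exons of Nme7 overlap 18.7% of its exon bases, and reads there were not counted for either gene. Atp1b3 (chromosome 9, 96332655 to 96364442) had 30.2, 39.2, 42.8, 31.3 and 36.2 normalized CPM in wild-type and 35.8, 31.4, 42.0, 46.9 and 40.4 in Thrb hep-/- livers, again with overlapping ranges (log2 fold change 0.13, 95% interval -0.14 to 0.39, edgeR adjusted p = 0.706). Per kb of exon, Atp1b3 made up 45.2% ± 5.3 of the sum of both beta subunits in wild-type and 46.6% ± 3.11 in Thrb hep-/- livers (SD, n = 5 each), and these shares differed by less than the spread between mice.

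The calcium pumps of the endoplasmic reticulum were represented almost entirely by Atp2a2. Atp2a2 (chromosome 5, 122453513 to 122502225) was at 178, 196, 232, 181 and 207 normalized CPM in wild-type mice 1 to 5 and at 247, 149, 192, 187 and 179 in Thrb hep-/- mice 1 to 5. The Thrb hep-/- values spread on both sides of the wild-type range (log2 fold change -0.06, 95% interval -0.33 to 0.21, edgeR adjusted p = 0.893). Atp2a3 (chromosome 11, 72961169 to 72993044), the isoform of blood and secretory cells, lay near the limit of the filter, at 0.64, 1.96, 2.0, 1.45 and 1.35 normalized CPM against 1.67, 1.39, 1.41, 1.16 and 1.59, with the lowest value in wild-type mouse 1 (log2 fold change -0.04, 95% interval -0.61 to 0.53, edgeR adjusted p = 0.97). Resting on 17 to 56 reads a library, that interval runs from 0.656 to 1.44 times the wild-type level. Atp2a3 made up 0.838% ± 0.275 of the 2 isoforms per kb in wild-type and 0.879% ± 0.154 in Thrb hep-/- livers (SD, n = 5 each).

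Of the plasma membrane calcium pumps, Atp2b1 was steady and Atp2b2 varied widely between mice. Atp2b1 (chromosome 10, 98914406 to 99026143) was at 37.3, 38.5, 38.7, 32.7 and 42.0 normalized CPM in wild-type mice 1 to 5 and at 41.6, 31.7, 47.7, 39.0 and 38.8 in Thrb hep-/- mice 1 to 5 (log2 fold change 0.07, 95% interval -0.15 to 0.30, edgeR adjusted p = 0.827). Atp2b2 (chromosome 6, 113743831 to 114042613), best known for its part in hair cells of the ear, was at 3.60, 6.71, 12.8, 5.16 and 6.89 normalized CPM against 6.39, 5.40, 8.20, 4.50 and 5.31. Wild-type mouse 3 was the highest of all, the coefficient of variation among wild-type mice was 49.8%, and the fitted difference (log2 fold change -0.24, 95% interval -0.89 to 0.41, edgeR adjusted p = 0.788) turned to 0.09 without that mouse. Atp2b1 accounted for 72.7% ± 5.42 of the summed per-kb level of Atp2b1, Atp2b2 and Atp2b4 in wild-type and for 73.7% ± 2.11 in Thrb hep-/- livers (SD, n = 5 each).

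Atp2c1 and Atp7b were the least variable of the 9 genes in the fit. Atp2c1 (chromosome 9, 105403539 to 105527319) was at 34.9, 34.2, 33.5, 32.3 and 28.6 normalized CPM in wild-type mice 1 to 5 and at 32.3, 30.8, 38.6, 40.2 and 34.1 in Thrb hep-/- mice 1 to 5. Thrb hep-/- mice 3 and 4 were above all wild-type mice while the others lay within their range (log2 fold change 0.11, SE 0.09, 95% interval -0.09 to 0.30, edgeR adjusted p = 0.659), and Aste1 shares 18.9% of its exon bases. Atp7b (chromosome 8, 21992785 to 22060305) was at 37.0, 36.8, 34.0, 39.9 and 43.5 against 39.2, 39.5, 35.8, 33.3 and 41.2 normalized CPM (log2 fold change -0.02, SE 0.08, 95% interval -0.20 to 0.17, edgeR adjusted p = 0.957). For Atp7b that interval runs from 0.87 to 1.12 times the wild-type level, the narrowest of the 9. Its paralogue Atp7a, the copper pump of most other tissues, left Atp7b with 95.9% ± 0.923 of their summed per-kb level in wild-type and 95.9% ± 0.541 in Thrb hep-/- livers (SD, n = 5 each).

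Levels of different genes were compared per kb of exon. In wild-type livers the order of the 9 genes was Atp2a2 (32.7 ± 3.64 normalized CPM per kb), Atp1b1 (18.3 ± 2.79), Atp1b3 (15.0 ± 2.22), Atp7b (5.88 ± 0.552), Atp2c1 (3.37 ± 0.257), Atp2b1 (2.49 ± 0.222), Atp4a (0.988 ± 0.397), Atp2b2 (0.558 ± 0.278) and Atp2a3 (0.280 ± 0.105; SD, n = 5 each). The ranges over mice overlapped between Atp1b1 and Atp1b3, between Atp4a and Atp2b2, and between Atp2b2 and Atp2a3. Within every wild-type library the first gene of each of these pairs was nevertheless the higher. In Thrb hep-/- livers Atp4a dropped from the seventh to the last place (0.147 ± 0.0622 per kb) and the order of the other genes was kept. Divided by the longest transcript in place of all exon bases, Atp7b, Atp2c1 and Atp2b1 came to 5.88, 5.79 and 5.30 per kb in wild-type livers with overlapping ranges, so their order rests on the length used, and in Thrb hep-/- livers Atp2c1 (6.24) was then above Atp7b (5.81). Atp2a2 exceeded 90.3% and Atp4a 19.5% of all tested genes in wild-type livers.

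**Figure D2:**
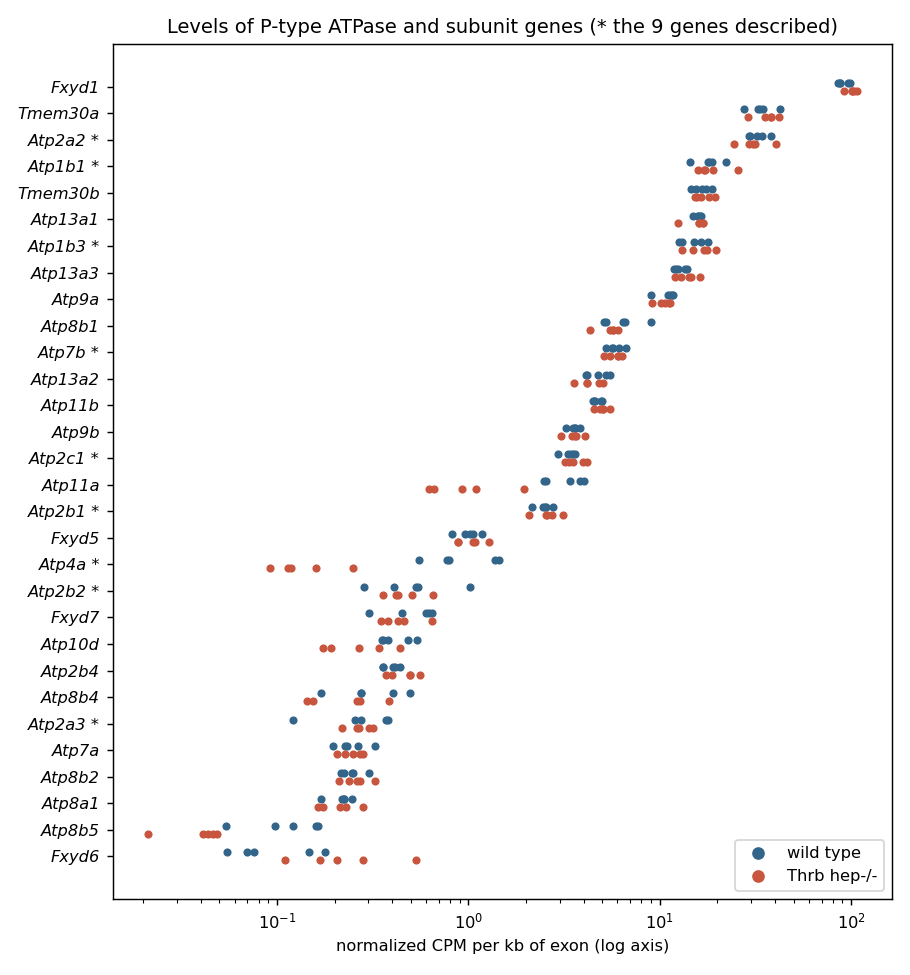
Normalized CPM per kb of exon on a log axis for 30 of the 32 family genes with a wild-type mean above 0.1, 1 point per mouse and a row per gene, with stars on the 9 genes described. Of the 9 genes Atp2a2 leads at a wild-type mean of 32.7. The points of Atp4a, of Atp11a and of Atp8b5, which was below the filter on low counts, fall into separate clusters by genotype.

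The wider family was set beside these genes with 42 further P-type ATPase and subunit genes, of which 20 passed the filter. Of those 20, 1 was called lower (2.57% over all genes tested) and 0 higher (1.51%), and their log2 fold changes had a median of -0.0031. Fxyd1, a small regulator of the sodium/potassium pump, was at 187 to 217 normalized CPM in wild-type and 201 to 235 in Thrb hep-/- livers (log2 fold change 0.15, adjusted p = 0.422). Of the further calcium and copper pumps, Atp2b4 (log2 fold change 0.23, adjusted p = 0.493) and Atp7a (log2 fold change -0.01, adjusted p = 0.986) were tested, and neither they nor the P5 pump with the highest level per kb of all exon bases, Atp13a1 (log2 fold change -0.02, adjusted p = 0.964), passed. Per kb of the longest transcript, Atp13a3 was instead the higher of these P5 pumps (17.4 against 15.8 in wild-type livers). In the lists of sodium/potassium and proton/potassium subunits (3 tested) and of further calcium and copper pumps (2 tested), 0 genes were called by edgeR, DESeq2 or limma-voom and 0 had an unadjusted p below 0.05 in edgeR.

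Atp11a, which flips phospholipids to the inner leaflet of the plasma membrane, was the gene of the wider family called lower. Wild-type mice 1 to 5 had 44.6, 42.5, 37.8, 28.4 and 27.5 normalized CPM and Thrb hep-/- mice 1 to 5 had 21.6, 6.97, 7.41, 10.3 and 12.3. The genotypes did not overlap, although Thrb hep-/- mouse 1 came near the lowest wild-type mice (log2 fold change -1.63, SE 0.30, edgeR adjusted p = 0.0314). Its exons share 3.33% of their bases with Gm15347 and Gm15350. The call was lost with the mean level of acute-phase genes as a covariate (log2 fold change -1.47, adjusted p = 0.998), a fit in which 8 genes in all were called. That mean level was 8.76 to 10.32 log2 CPM in wild-type and 7.59 to 8.66 in Thrb hep-/- livers, without overlap. The fit therefore separates genotype and acute-phase level poorly. In the P4 and P5 list 2 of 15 tested genes had an unadjusted p below 0.05, Atp11a and Atp10d, a flippase of the same class (log2 fold change -0.58, edgeR adjusted p = 0.332, called without Thrb hep-/- mouse 1). That count has no reference, as the share of all genes tested at that unadjusted level is not given here.

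**Figure D3:**
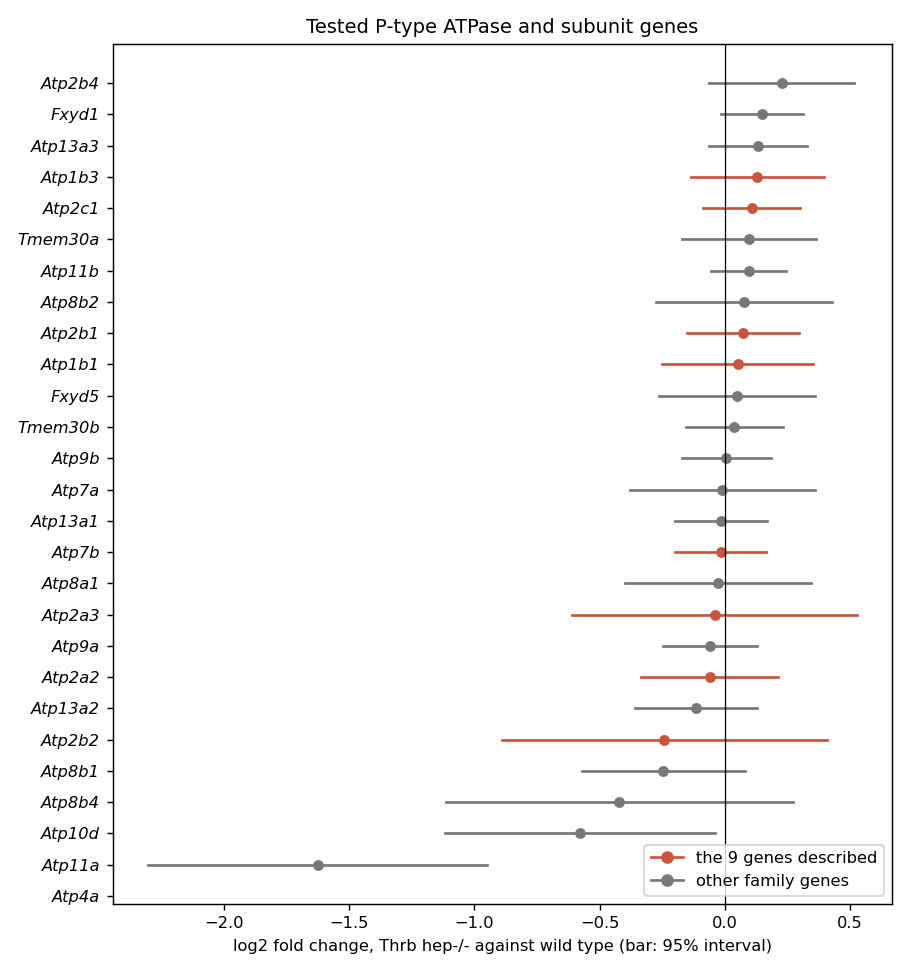
Fitted log2 fold change (horizontal axis) with the 95% interval as a bar, and a row for each of 27 of the 29 tested P-type ATPase and subunit genes. The row of Atp4a, which was chosen for its fall, holds neither a point nor a bar. Of the other 26 genes Atp11a lies farthest from 0 at -1.63.

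Among genes that work beside the calcium pumps, 17 of 20 were tested, with 1 called higher (1.51% over all genes tested), 0 lower (2.57%) and a median log2 fold change of 0.01. Letm1, a cation exchanger of the inner mitochondrial membrane, was at 68.2 to 91.8 normalized CPM in wild-type and 96.7 to 118 in Thrb hep-/- livers, with no overlap (log2 fold change 0.37, SE 0.09, edgeR adjusted p = 0.0747). The call was lost, at adjusted p from 0.154 to 0.17, without wild-type mouse 2 or 5 or without Thrb hep-/- mouse 3, 4 or 5, while the fold change stayed between 0.33 and 0.37 in these fits. Of the 17, 3 had an unadjusted p below 0.05, a level whose share over all genes tested is not given here. Beside Letm1 these were Slc8a1, a sodium/calcium exchanger (log2 fold change -0.56, edgeR adjusted p = 0.257, genotypes without overlap), and the chaperone Canx (log2 fold change 0.20, edgeR adjusted p = 0.315, called by DESeq2 and without Thrb hep-/- mouse 2). The inositol trisphosphate receptors Itpr1 and Itpr2, the calcium sensor Stim1 and the chaperone Calr also did not pass, with log2 fold changes of -0.08, -0.14, 0.01 and 0.003.

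Among genes of copper handling, 10 of 12 were tested, with 2 called lower (2.57% over all genes tested), 0 higher (1.51%) and a median log2 fold change of 0.03. Mt1, a metal-binding metallothionein, had 348, 323, 76.1, 272 and 391 normalized CPM in wild-type mice and 30.2, 72.9, 16.7, 12.2 and 88.2 in Thrb hep-/- mice, so that wild-type mouse 3 lay within the Thrb hep-/- range (log2 fold change -2.68, SE 0.64, edgeR adjusted p = 0.0824). Cp, the copper-carrying plasma protein ceruloplasmin that Atp7b loads and itself an acute-phase gene, was at 1188 to 2140 against 1001 to 1272 (log2 fold change -0.52, SE 0.15, edgeR adjusted p = 0.124). The Mt1 call was lost without wild-type mouse 2 or 5 or Thrb hep-/- mouse 3 (adjusted p from 0.18 to 0.188), and that of Cp without any of 7 mice, namely wild-type mice 1, 2 and 5 and Thrb hep-/- mice 1, 3, 4 and 5 (adjusted p from 0.153 to 0.262). The Mt1 call was also lost without the filter on low counts (adjusted p = 0.17). With the acute-phase covariate neither Mt1 (log2 fold change -0.46), Cp (0.12) nor Letm1 (0.19) was called (adjusted p = 0.998 for each). Cp is itself among the genes averaged in that covariate, which did not overlap between the genotypes. The copper importer Slc31a1 (log2 fold change 0.02) and the chaperone Atox1 (log2 fold change 0.10) did not pass.

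Acute-phase genes, which the liver raises in inflammation, moved with the genotype. Of 20 such genes, 12 were called lower (2.57% over all genes tested) and 0 higher (1.51%). Lbp (log2 fold change -0.81, adjusted p = 0.0214), Hp (-1.33, adjusted p = 0.0216), Itih4 (-0.98, adjusted p = 0.0263) and Lcn2 (-4.18, adjusted p = 0.0477) had the lowest p in edgeR. Saa1 was at 1010, 7135, 265, 823 and 3669 normalized CPM in wild-type mice 1 to 5 and at 66.1, 158, 25.8, 33.0 and 112 in Thrb hep-/- mice 1 to 5 (log2 fold change -5.03, SE 1.0, edgeR adjusted p = 0.0479). Wild-type mouse 3 combined the lowest wild-type Saa1 with 5.18 normalized CPM of Atp4a, exceeded only by wild-type mouse 2, which also had the highest Saa1. Among Thrb hep-/- mice, mouse 2 had the highest Saa1 and Atp4a (0.94 normalized CPM), and mouse 5 the next highest of both (0.60). Thrb hep-/- mouse 1 had the lowest Atp4a (0.35) at the median Saa1 of its genotype. With the mean acute-phase level, which did not overlap between the genotypes, as a covariate the fitted log2 fold change of Atp4a was -2.35 instead of -2.75.

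**Figure D4:**
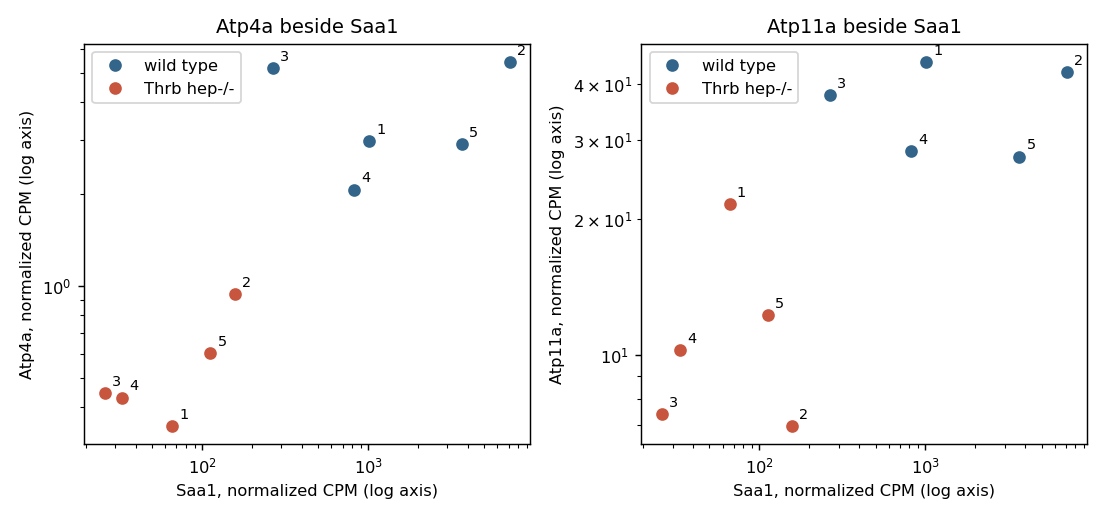
Atp4a (left) and Atp11a (right) against Saa1, all in normalized CPM on log axes, with a point per mouse labelled by its replicate number. The genotypes separate on both axes in both panels, and wild-type mouse 3 is high in Atp4a at the lowest wild-type Saa1 of 265. Mouse 2 is the highest of its genotype in both Atp4a and Saa1, in wild-type and in Thrb hep-/- livers.

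Markers of the liver's cell types were read in the same fit. Hepatocyte markers were present at 82035 to 124527 normalized CPM in sum in wild-type and 99520 to 111776 in Thrb hep-/- livers, with 0 of 6 called by edgeR and Ttr called by DESeq2 and limma-voom. For leukocytes, 0 of 4 tested markers were called by the 3 tools, 3 had an unadjusted p below 0.05, all 4 had negative fold changes with a median of -0.57, and the summed level of the list was 46.1 to 139 against 49.5 to 101.99, with Cd3e at 0.265 normalized CPM or less in every library. For the other types edgeR called 0 of 5 endothelial genes (2 with an unadjusted p below 0.05, called by DESeq2 and not by limma-voom), 0 of 5 stellate and fibroblast genes (1 below 0.05), 0 of 3 cholangiocyte genes (2 below 0.05) and 0 of 1 platelet gene (0 below 0.05), the last 3 lists with no call by the other tools. These counts at an unadjusted p stand without the share over all genes tested, which is not given here. The part of these lists and of the acute-phase genes in the fall of Atp4a was not tested.

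Around Atp4a, 17 genes start within 100 kb and 4 of them passed the filter. Tmem147, a membrane protein gene 17.3 kb downstream, was at 76.5 to 91.0 normalized CPM in wild-type and 71.8 to 77.0 in Thrb hep-/- livers (log2 fold change -0.15, edgeR adjusted p = 0.362). Gapdhs, the sperm glycolytic enzyme 31.5 kb downstream, was at 2.48 to 3.78 against 1.2 to 2.64 (log2 fold change -0.56, SE 0.22, edgeR adjusted p = 0.275). Cox6b1, a respiratory chain subunit gene 86.1 kb upstream (log2 fold change 0.20, adjusted p = 0.475), and Tmem147os (log2 fold change 0.15, adjusted p = 0.896), did not pass. The neighbours thus held 0 calls in edgeR, DESeq2 and limma-voom, with 2 of the 4 at an unadjusted p below 0.05 in edgeR. The share of all genes tested at that unadjusted level is not given here. The counting ignored strand, and Gapdhs and Tmem147os share exon bases (10.1% of those of Gapdhs).

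The genes whose profile over the 10 mice was most like that of Atp4a were Tnfsf12, Adar, Tmprss2, Cyp4f16 and Apaf1. Likeness was the root mean square difference of z-scored log2 CPM, which was 0.101, 0.273, 0.289, 0.297 and 0.319 for these genes and 1.34 for the median of all tested genes. Tnfsf12, a cytokine gene of the tumour necrosis factor family, had 4.20, 5.11, 5.0, 3.67 and 4.42 normalized CPM in wild-type and 2.08, 2.81, 2.16, 2.38 and 2.33 in Thrb hep-/- mice (log2 fold change -0.93). Chosen for its likeness over these same mice, it shared with Atp4a the order of the highest wild-type mice, 2 before 3. It also shared the highest Thrb hep-/- mouse, which was mouse 2. Tmprss2, a transmembrane protease gene, had the largest of these 5 differences at 11.2 ± 1.80 against 3.58 ± 0.471 (SD, n = 5 each). The measure gives no weight to the size of a change, and the log2 fold changes of the 5 ran from -0.28 for Adar to -1.65 for Tmprss2, all smaller in size than that of Atp4a.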

How the data were processed

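The authors aligned reads of stranded poly(A) libraries to mm10 with HISAT2 (2.2.1) and deposited raw counts per gene from HTSeq-count (0.9.1) on Ensembl exons, without use of strand and without reads of more than 1 gene. A table of the authors' own comparison (fold changes and p-values) was not used. A gene was kept when 5 or more libraries reached 1 CPM (4 with a mouse left out) and fitted in edgeR (4.0.16) with TMM factors and robust settings, as in the study, and the quasi-likelihood test, with Benjamini-Hochberg adjustment over 12234 genes. The script was tested on simulated data. Gene models were those of GENCODE M21 (GRCm38).

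Named were the 9 pump genes, called genes of the lists (at most 4 each), the highest gene of each pump class, tested genes within 100 kb of Atp4a, the 5 profiles nearest to it, Thrb, Dio1, Hectd3, Thrsp and Saa1. Other genes were named after their values were seen, and some family genes are counted in the lists but not reported singly here. The members and lists were chosen with earlier results of these data known. Counts at an unadjusted p below 0.05 have no reference, as the share over all genes tested is not given. Alternatives were DESeq2 (1.42.0), limma-voom (3.58.1), RLE and upper-quartile factors, other filters, a replicate block, an acute-phase covariate and each mouse left out. The labels number the samples without saying that each is a separate mouse, and p-values measure the spread between these samples.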

Additional observations from a re-analysis of the deposited data

Results flagged for a closer look

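Among 68 groups of 5 values checked, 3 held a value far from the other 4, where chance gives about 3.4. Atp13a1, a P5 pump of the endoplasmic reticulum, was at 48.8 normalized CPM in Thrb hep-/- mouse 2, against 62.7 to 66.2 in the other Thrb hep-/- mice. Thrsp in wild-type mouse 5 was at 1900 normalized CPM, against 381 to 551 in the other wild-type mice. The total count of Thrb hep-/- mouse 2 was 27779196, against 28441288 to 28590704 in the other Thrb hep-/- mice. None of the 9 pump genes was set apart in this way.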

How the results depend on the processing

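The log2 fold change of Atp4a lay between -3.01 and -2.35 over 18 alternatives, and between -3.01 and -2.58 with a mouse left out. Of the other 8 pump genes, 0 were called under each of the 18 alternatives. With a mouse left out their small differences ran from -0.0812 to 0.135 for Atp1b1, -0.171 to 0.0217 for Atp2a2, -0.227 to 0.092 for Atp2a3, -0.00116 to 0.149 for Atp2b1, -0.404 to 0.0915 for Atp2b2 and -0.0572 to 0.0337 for Atp7b, so that the sign turned, and the sign of Atp1b3 and Atp2c1 did not turn. With the acute-phase covariate the sign turned for Atp1b1 (-0.131), Atp1b3 (-0.12), Atp2a3 (0.0331), Atp2b1 (-0.0185), Atp2c1 (-0.0997), Atp7b (0.183) and Cp (0.115), and limma-voom turned Atp2a3 (0.0437). The cause of these turns was not tested, and that covariate, of which Cp is a part, did not overlap between the genotypes. The 4 calls of the pump and partner lists became 0 with that covariate and ranged from 1 to 6 with a mouse left out. The Atp1b3 share of both beta subunits was 46.0% on the longest transcript instead of 45.9%, that of Atp2b1 became 81.8% in wild-type and 82.9% in Thrb hep-/- livers, and that of Atp7b 92.9% in both.

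The labels do not say whether equal replicate numbers pair the mice. The deviations of same-numbered mice from their genotype means correlated at -0.202 to 0.0091, which cannot settle whether they were paired. With the number as a replicate block, 348 genes were called instead of 499, the pump and partner lists held 4 calls, none of the other 8 pump genes was called (0), Atp4a was at -2.72 and Atp2a3 turned to 0.0156. DESeq2 called 885 genes. Low counts limit Atp4a and Atp2a3 most.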

Other observations

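Some family genes below the filter differed between mice, and all of them were noticed after their values were seen. In Thrb hep-/- mouse 1, Fxyd6 (2.19), Atp1b2 (1.32) and Atp2b3 (0.73 normalized CPM) each had their highest value of the 10 mice. Atp8b5 was at 0.35 to 1.06 in wild-type and 0.14 to 0.31 in Thrb hep-/- livers, without overlap. Mt2, the other metallothionein of copper handling, was at 0.68 to 2.46 against 0.07 to 0.38, also without overlap. None of these genes passed the filter on low counts of the reported fit. Without that filter Atp8b5 and Mt2 were called, and Mt2 was also called with filterByExpr and in 6 of the 10 fits with a mouse left out.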
